A study of Mus musculus with 24 samples.

Results

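The transcriptional response of Smchd1 heterozygous mouse embryonic stem cells (mESCs) to Wnt activation was measured by comparing the 3 libraries of het lines on day 2.5 of differentiation with the 3 libraries of the same lines on day 2. These are 6 of the 24 polyA RNA-seq libraries of a time course with 4 days (0, 2, 2.5 and 3) and 2 genotypes, chosen by their labels for genotype and day. Of 35591 genes in the deposited count table, 15577 had enough counts in these 6 libraries to be tested.

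The het lines carry one deleted Smchd1 allele (Smchd1[del/+]) and the comparison lines are wild type for SMCHD1 function (wt, Smchd1[fl/+]). All 6 lines, 3 of each genotype, are male and came from a cross of Castaneus mothers, wild type for Smchd1, with C57BL/6 fathers that carried a deleted and a floxed allele and an MMTV-Cre transgene, so the deletion was inherited from the father and the oocytes were not depleted of SMCHD1. Every line had been taken from DMEM with LIF on day 0 to N2B27 medium with bFGF, and CHIR99021 was added on day 2. GDF11 was added only on day 3. No line was kept without CHIR99021 to day 2.5, so the effect of the compound, of the 12 further hours of differentiation and of the change of medium cannot be told apart in what follows. Each line is 1 culture per day, and its 4 days share 1 genotype and 1 derivation.

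CHIR99021 inhibits the kinase GSK3, which otherwise marks β-catenin for destruction. Stabilised β-catenin enters the nucleus and, with TCF/LEF factors, drives target genes, many of which encode inhibitors of the pathway itself. In the embryo, Wnt and FGF signals at the primitive streak and the caudal epiblast maintain neuromesodermal progenitors (NMPs), cells that give rise to spinal cord and paraxial mesoderm and that switch on Cdx and then Hox genes.

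Total counts were between 15527825 and 17041964 in the het day 2 libraries and between 18187010 and 19741508 on day 2.5. Levels are given in CPM, the counts scaled by library size and by edgeR's TMM factors to a common total, for lines 1, 2 and 3 in that order, and changes as log2 fold change of day 2.5 over day 2 ± standard error from edgeR, n = 3 libraries per day, with Benjamini-Hochberg adjusted p over all genes tested. No het library stood apart. The largest shift of a whole chromosome in one het library was 0.06 on the log2 scale (chromosome 8). Smchd1 itself was at 116, 121 and 123 CPM on day 2 and at 93.3, 87.5 and 89.2 CPM on day 2.5. The day groups did not overlap, and the level fell by 0.42 ± 0.08 on the log2 scale (adjusted p = 0.000916).

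In all, 6963 genes (44.7% of those tested) passed the test, 3390 higher (21.8%) and 3573 lower (22.9%) on day 2.5, and the median change of all genes was 0.01. Against a bound of 2-fold, 621 genes passed (3.99%), 330 higher (2.12%) and 291 lower (1.87%). The values of the days did not overlap for 8499 genes (54.6%). Each group of genes below is read against these shares. Their balance depends on the scaling, and with library totals 4045 genes were higher and 3017 lower. The filter on low counts was passed through day 2.5 only by 1049 genes, which reached a count of 10, scaled by depth, in every day 2.5 library but not in every day 2 library, and 349 of them were higher. Another 437 genes passed it through day 2 only, and 182 of these were lower. A count over such genes is set in part by the filter and is given below as a description.

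The sequence before the start site is shown for Sp5, T and Axin2, 3 of the 4 Wnt target genes with the largest rises among the listed targets with a promoter sequence. Capitals mark TCF/LEF motifs on either strand, which are CTTTG followed by AA, AT, TA or TT. Of 32851 mouse promoters in the RefSeq table (GRCm38.p6), 14.8% held one of these motifs in the 250 bases before the start. The T-box motif TCACACC was held by 3.33% and by none of the stretches below. Positions are those of the first base of the match, counted back from the start site.
Sp5, plus strand, chr2:70474673-70474922: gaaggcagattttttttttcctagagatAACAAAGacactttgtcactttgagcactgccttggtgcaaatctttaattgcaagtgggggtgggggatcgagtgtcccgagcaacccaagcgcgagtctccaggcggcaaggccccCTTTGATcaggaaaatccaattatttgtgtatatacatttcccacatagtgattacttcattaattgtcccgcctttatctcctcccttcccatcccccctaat
T, plus strand, chr17:8434173-8434422: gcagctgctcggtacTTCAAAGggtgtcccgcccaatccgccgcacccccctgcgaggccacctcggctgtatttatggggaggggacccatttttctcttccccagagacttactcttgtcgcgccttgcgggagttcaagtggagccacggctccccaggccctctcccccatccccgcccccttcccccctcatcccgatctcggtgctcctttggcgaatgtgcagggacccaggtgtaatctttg
Axin2, plus strand, chr11:108920099-108920348: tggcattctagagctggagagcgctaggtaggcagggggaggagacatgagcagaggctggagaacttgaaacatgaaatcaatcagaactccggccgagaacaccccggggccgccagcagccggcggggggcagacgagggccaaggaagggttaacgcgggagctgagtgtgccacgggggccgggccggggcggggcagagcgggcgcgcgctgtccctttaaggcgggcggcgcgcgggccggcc
The Sp5 stretch held matches at -222 and -104, the T stretch 1 match at -235, and the Axin2 stretch none, which says only that these letters are absent from this window. Dkk1, whose rise lay between those of T and Axin2, held matches at -117 and -98, but its RefSeq start lies 169 bases inside the annotated transcript and its sequence is not shown. Dkk4 was not in the table. Of all 12 tested targets on the list whose promoter was searched, Sp5, T and Dkk1 held a match and the other 9 held none. The searched start lay 6279 bases from the annotated gene start for Nkd1, 365 for Rnf43 and 148 for Lef1, so these windows are not those of the annotated starts. A comparison of motif shares between genes that rose and fell is void, because 73.8% of genes tested and 54.5% of the tested Wnt target list had a promoter in the table.

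Of 22 tested members of a list of direct targets and feedback inhibitors, 14 were higher, 2 were lower and 6 did not pass, 9 of them past the 2-fold bound and all of these higher. The filter was passed through day 2.5 only by 8 of the 22, all higher, and of the other 14 members 6 were higher and 2 lower. Without day 2.5 line 3, 1 member was also lower past 2-fold. Of the lower genes, Sfrp1 and Sfrp2, Sfrp2 lost its call when any of 4 libraries was left out, and with library totals, with DESeq2 or its size factors, and with all 24 libraries in the fit (adjusted p between 0.0505 and 0.165). Axin2, the scaffold of the destruction complex and a general Wnt target, was at 7.71, 9.23 and 6.69 CPM on day 2 and at 124, 109 and 142 CPM on day 2.5. The 3 lines were all higher on day 2.5, and the change was 3.98 ± 0.14 (adjusted p = 1.39e-10). Nkd1, which inhibits Dishevelled, went from 6.31, 5.99 and 8.51 CPM to 53.5, 44.7 and 58.5 CPM.

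Dkk4 and Sp5 had no count in any day 2 library. Dkk4 (chr8:22624043-22627547, plus strand), a secreted inhibitor of the LRP5/6 co-receptors, had 76.6, 107 and 72.2 CPM on day 2.5, at least 467-fold higher than the floor of 3 counts per library. Sp5, a zinc finger repressor of TCF targets, had 48.6, 39.5 and 53 CPM, at least 258-fold higher than that floor. Tested genes without a count on day 2 numbered 47 in all, and these entered the test only through their day 2.5 counts, so their calls are a description. No tested gene was without counts on day 2.5.

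Of further inhibitors, Dkk1 and Notum rose from a trace. Both passed the filter through day 2.5 only, so their calls are a description. Dkk1, which like Dkk4 blocks LRP5/6, was at 0.182, 0.539 and 0.0649 CPM on day 2 and at 10.7, 9.89 and 11.3 CPM on day 2.5, a change of 5.28 ± 0.44 (adjusted p = 5.85e-07). Notum, an enzyme that removes the lipid of Wnt ligands, reached 13.4, 14.6 and 16.8 CPM from 0.364, 0 and 0.0649 CPM. Znrf3, a ligase that removes Frizzled receptors, was higher by 1.30 ± 0.14 (adjusted p = 5.69e-06). The secreted antagonist Sfrp1 went the other way, from 26.9, 28.8 and 27.1 CPM to 9.92, 9.05 and 13.7 CPM, and fell by 1.35 ± 0.17 on the log2 scale (adjusted p = 2.35e-05).

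Of the TCF/LEF factors, Lef1 and Tcf7 were higher by small amounts that depended on single libraries, and Tcf7l1 was lower. Lef1, a factor that is commonly read as a Wnt target, was at 73.9, 61.3 and 60.2 CPM on day 2 and at 81.5, 78.8 and 100.2 CPM on day 2.5. Its change of 0.41 ± 0.11 passed (adjusted p = 0.00949), but it did not without day 2.5 line 3 (0.30, adjusted p = 0.0501) or with all 24 libraries in the fit (0.43, adjusted p = 0.104). Tcf7 changed by 0.29 ± 0.11 (adjusted p = 0.0458) and lost its call without any of 4 libraries, where the adjusted p was between 0.0543 and 0.197, and with all 24 libraries in the fit (adjusted p = 0.0756).

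**Figure D1:**
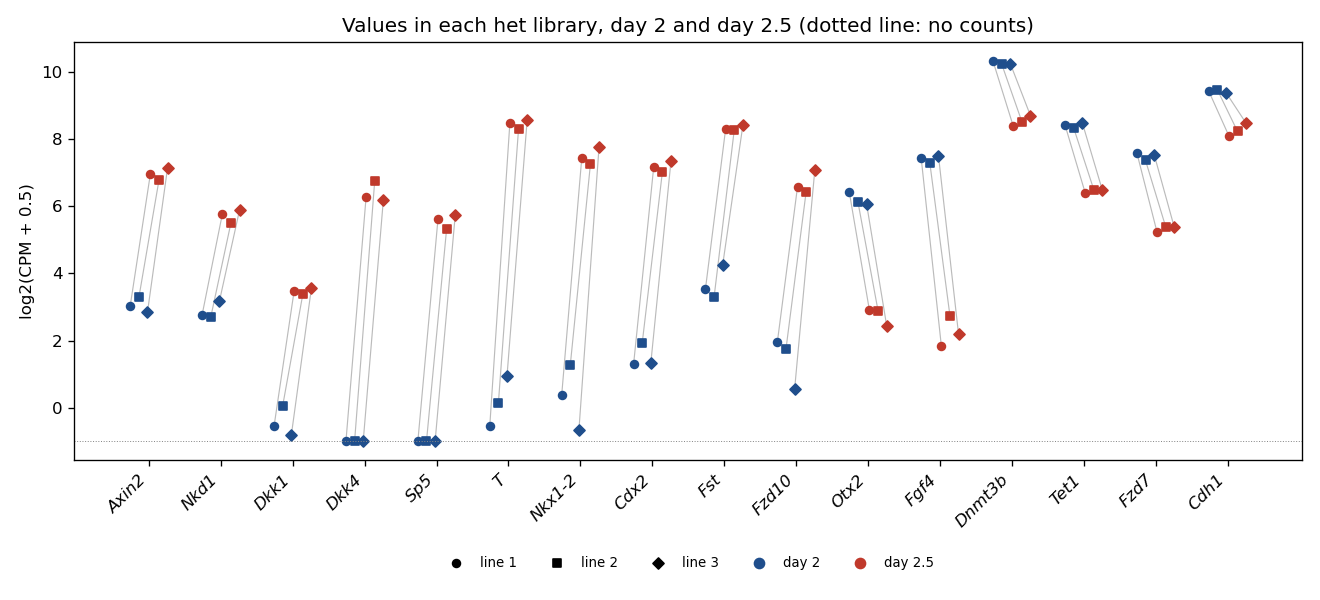
Levels of 16 genes in each of the 6 het libraries on a log2(CPM + 0.5) axis, day 2 in blue and day 2.5 in red, with a grey line joining the days of one line; the dotted line marks no counts. The 3 lines moved together for each gene, with Dkk4 and Sp5 rising from no counts and Fgf4 falling from over 150 CPM to under 10 CPM.

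Wnt ligands and receptors changed in both directions. Of 15 tested ligands and R-spondins, 7 were higher and 1 lower, 6 and 1 of these past 2-fold. The same list also holds Porcn and Wls, which serve the secretion of Wnt proteins, and neither passed. Of the 7 higher genes, 3 passed the filter through day 2.5 only. Wnt8a, a ligand of the primitive streak, rose from 13.3, 11 and 11.2 CPM to 116, 118 and 128 CPM, a change of 3.35 ± 0.11 (adjusted p = 1.15e-10). Wnt5b, a ligand mostly studied for β-catenin-independent signalling, rose from 2.49, 4.43 and 4.22 CPM to 61.1, 59.6 and 73.4 CPM. Wnt3a, the ligand of the caudal epiblast, had a single count in line 1 and none in lines 2 and 3 on day 2, and 4.72, 2.51 and 4.39 CPM on day 2.5. The summed level of the ligands and R-spondins was 54.4, 54.3 and 52.7 CPM on day 2 and 245, 240.0 and 261 CPM on day 2.5. The one ligand called lower was Wnt9a, from 6.13, 7.31 and 6.95 CPM to 1.52, 1.20 and 1.78 CPM (-2.18 ± 0.32, adjusted p = 9.15e-05). With a mean of at least 50 counts Wnt7b was also called lower (adjusted p = 0.0483). With limma voom Wnt2b and Wnt7a were called higher (adjusted p = 0.0463 and 0.0315).

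Among 16 receptors and co-receptors, 4 were higher, a share near that of all genes, and 8 lower, and the median change was -0.42. Fzd10 rose from 3.40, 2.88 and 0.974 CPM to 94.9, 85.8 and 133 CPM (5.41 ± 0.27, adjusted p = 4.01e-09). Fzd7, a Frizzled receptor of pluripotent cells, fell from 191, 164 and 185 CPM to 37.0, 41.4 and 40.9 CPM. Fzd10 and Fzd7 were chosen for the size of their change among genes whose days did not overlap. The co-receptors Lrp5 (-1.12 ± 0.11) and Lrp6 (-0.55 ± 0.09) fell (adjusted p = 1.8e-06 and 0.000141), as did the R-spondin receptor Lgr4 (-0.58 ± 0.11). The calls of Fzd8 and Lgr5 were lost when any of 5 libraries was left out (adjusted p between 0.0502 and 0.19 for Fzd8, and between 0.0905 and 0.153 for Lgr5). The call of Fzd8 was also lost with the replicate block, the pairing by line (adjusted p = 0.0672), and that of Lgr5 with all 24 libraries in the fit (adjusted p = 0.0666).

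Of 21 genes for the intracellular parts of the pathway, 6 were higher and 8 lower, and none passed 2-fold (1 was higher past it without day 2 line 1); without day 2.5 line 1 or line 2 the lower genes numbered 5. Ctnnb1, which encodes β-catenin, was at 820.3, 842 and 825 CPM on day 2 and at 735, 689 and 954 CPM on day 2.5; the days overlapped and its change of -0.07 ± 0.10 did not pass (adjusted p = 0.609). Without day 2.5 line 3 it passed as lower (-0.22, adjusted p = 0.0173). The TCF repressor Tcf7l1 fell by 0.76 ± 0.15 on the log2 scale and the Groucho co-repressor Tle4 by 1.14 ± 0.10 (adjusted p = 0.00079 and 6.49e-07).

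**Figure D2:**
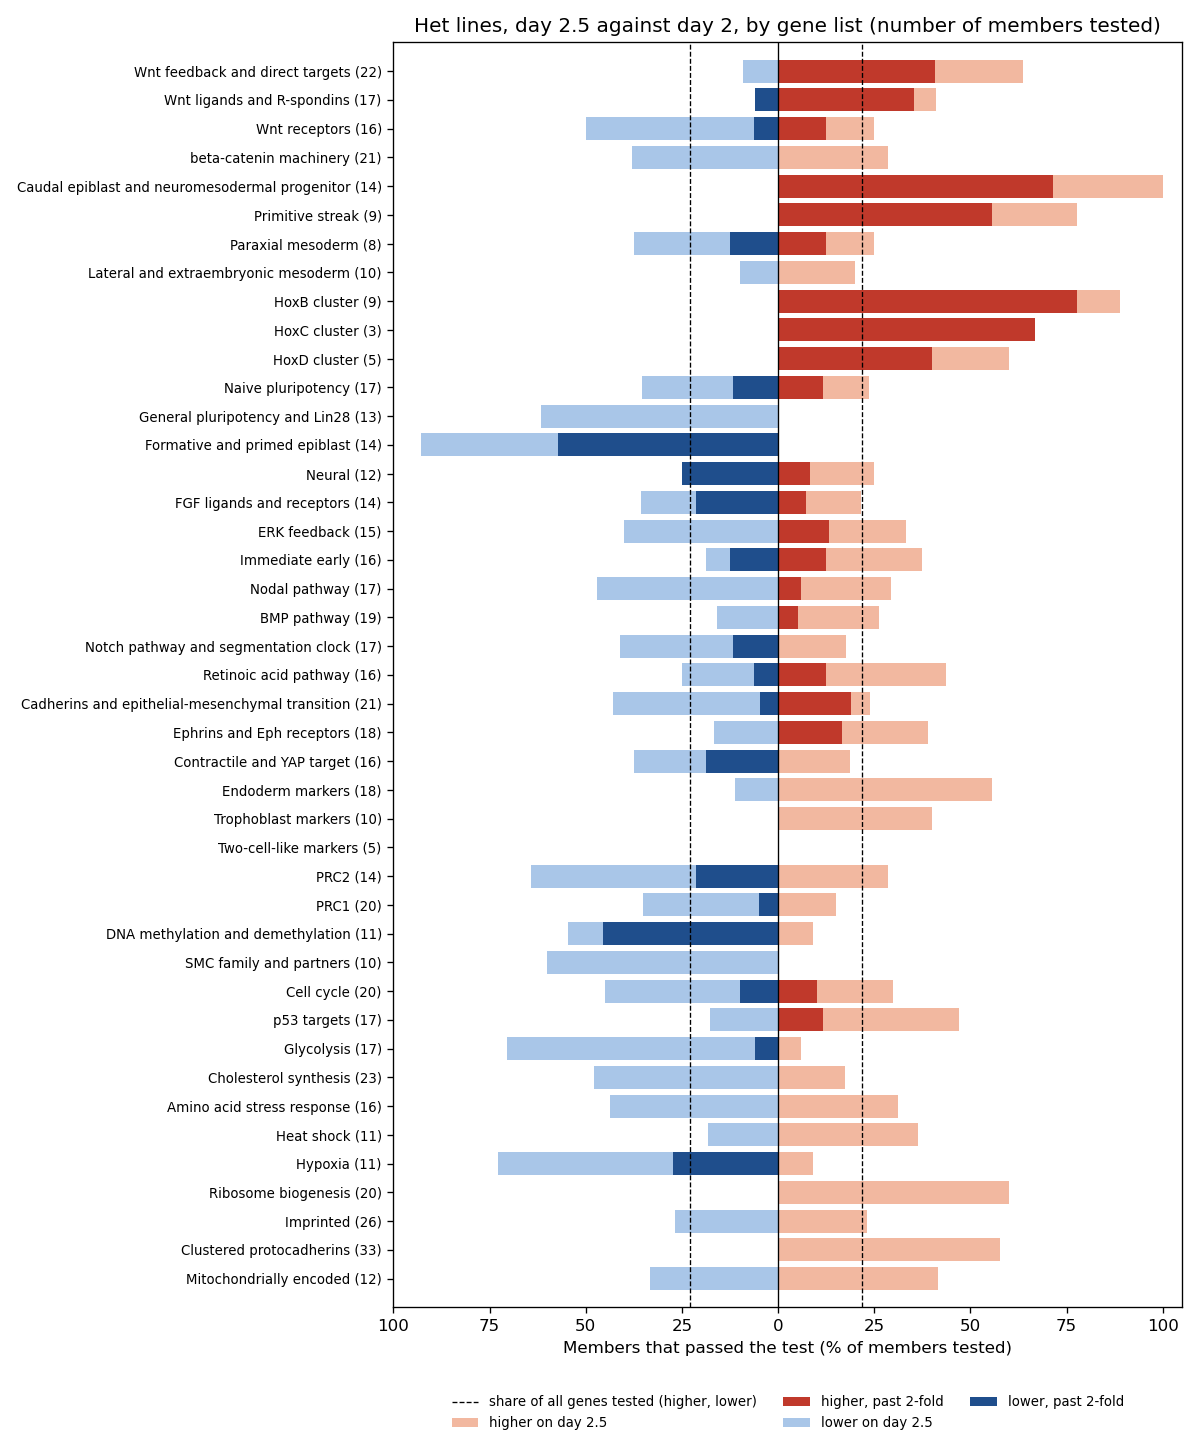
Share of the tested members of each gene list that were higher (right, red) or lower (left, blue) on day 2.5 in het lines, in percent, with the darker part showing those past 2-fold and the dashed lines the share of all genes tested (21.8% and 22.9%). The caudal epiblast list lies at 14 of 14 higher, 8 of which passed the filter on low counts through day 2.5 only, as did all 9 tested HoxB genes. The formative epiblast list lies at 13 of 14 lower, 1 of which passed that filter through day 2 only.

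Of 15 listed caudal epiblast and NMP genes, 14 were tested and all 14 were higher, 10 past 2-fold. The filter was passed through day 2.5 only by 8 of them, T, Nkx1-2, Cdx1, Cdx4, Evx1, Sp5, Fgf8 and Wnt3a, whose calls are a description. The other 6 were tested on both days, and 2 of these were past 2-fold. T (Brachyury), the T-box factor of streak and NMPs, was at 0.182, 0.599 and 1.43 CPM on day 2 and at 359, 312 and 378 CPM on day 2.5, a change of 8.90 ± 0.24 (adjusted p = 2.03e-11). Nkx1-2, a homeobox gene of the caudal epiblast, rose from 0.789, 1.92 and 0.13 CPM to 174, 152 and 218 CPM; it overlaps a gene on the opposite strand, and which libraries were made with a strand-specific kit is not given, so their reads cannot be told apart. The same applies to Evx1 and its antisense neighbour Evx1os.

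The Cdx genes, which act upstream of the Hox clusters, rose as a family. Cdx1 went from 0.91, 0.3 and 1.49 CPM to 169, 175 and 231 CPM, and Cdx2 from 1.94, 3.30 and 2.01 CPM to 143, 128 and 161 CPM. Cdx4 went from 1.64, 0.659 and 0 CPM to 47.6, 41.6 and 59.0 CPM. No day 2 library reached the lowest day 2.5 value of any of the 3 genes, but Cdx1 and Cdx4 passed the filter through day 2.5 only. Gbx2 and Greb1, already present on day 2, rose by 1.18 ± 0.14 and 1.08 ± 0.18 (adjusted p = 1.16e-05 and 0.000206).

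Of 9 tested primitive streak genes out of 13 listed, 7 were higher and none lower, 5 past 2-fold, and 3 of the 7 (Mixl1, Evx1 and Fgf8) passed the filter through day 2.5 only. Mixl1, a homeobox gene of the streak, rose from 0, 0.599 and 0.454 CPM to 28.7, 19.2 and 38.7 CPM, and Fst, a secreted activin inhibitor, from 11.2, 9.35 and 18.7 CPM to 314, 307 and 339.6 CPM. Nodal, which patterns the streak, was at 20.2 ± 3.52 CPM on day 2 and 17.6 ± 3.28 CPM on day 2.5 (SD, n = 3), and did not pass (adjusted p = 0.384). Eomes rose by 0.97 ± 0.19 (adjusted p = 0.000878). Of 18 endoderm markers tested, 10 were higher and 2 lower, none past 2-fold. The filter was passed through day 2.5 only by 1 of the 10, Hnf4a. With 1 library left out, up to 2 were higher past 2-fold (without day 2 line 2, day 2 line 3 or day 2.5 line 3) and 1 was lower past it without day 2.5 line 2, and the count of higher genes was between 4 and 12 when 1 library was left out, being 6 without day 2 line 1 and 4 without day 2.5 line 2. Their summed level ranged from 6249 to 8452 CPM on day 2 and from 6920 to 10115 CPM on day 2.5, so the days overlapped. Trophoblast markers were higher for 4 of 10 tested, none past 2-fold (1 without day 2 line 2 or day 2.5 line 3), and none of 5 two-cell-like markers passed in either direction (1 was higher without day 2 line 3). The part of such cells in the results was not tested.

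Paraxial mesoderm genes had no common direction. Of 8 tested, 2 were higher, a share near that of all genes, and 3 lower, and 1 was lower without any one of the day 2.5 libraries. The filter was passed through day 2.5 only by 1 of the higher genes and through day 2 only by 1 of the lower genes. Tbx6, the factor that commits NMPs to mesoderm, was at 0.728, 0.24 and 0.454 CPM on day 2 and at 0.884, 0.314 and 0.888 CPM on day 2.5, overlapping between days and not passing (adjusted p = 0.595). The Notch ligand Dll1 fell from 20, 22.6 and 20.3 CPM to 4.18, 2.72 and 3.95 CPM (-2.53 ± 0.20, adjusted p = 4.58e-07). In bulk samples such as these, fewer cells of a type and less RNA per cell cannot be told apart.

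HoxB genes were nearly silent on day 2 and present on day 2.5. Of 10 listed, 9 were tested, all of them through their day 2.5 counts only, so that the 8 called higher, 7 past 2-fold, are a description. Hoxb13 stayed below the filter, with 0 counts in every day 2 library and between 3 and 6 on day 2.5. Hoxb1, the most 3′ gene of the cluster, was at 1.82, 1.08 and 0.195 CPM on day 2 and at 46.9, 49.5 and 50.6 CPM on day 2.5, a change of 5.54 ± 0.31 (adjusted p = 1.45e-08). Hoxb9, from the other end of the tested genes, went from 0.85, 0 and 0.195 CPM to 13, 7.79 and 10.9 CPM (4.89 ± 0.57, adjusted p = 1.36e-05). Hoxb7, at 0, 0.24 and 1.36 CPM on day 2 and 2.51, 2.25 and 2.22 CPM on day 2.5, did not pass (adjusted p = 0.058), but passed with the replicate block (adjusted p = 0.0379), with DESeq2 and limma voom (adjusted p = 0.021 and 0.0119), without a filter, with all 24 libraries and without day 2 line 3 (adjusted p = 0.014, 0.0149 and 0.00174). The call of Hoxb5 was lost when any of 5 libraries was left out (adjusted p between 0.0693 and 0.11) and without a filter (adjusted p = 0.0502). In the authors' length-scaled log2 RPKM, Hoxb1 had the highest mean of the cluster on day 2.5, 4.38 ± 0.08 (SD, n = 3), after -1.76 ± 1.69 on day 2. Hoxb9 went from 10.6 ± 2.60 CPM on day 2.5 to 25.7 ± 3.88 CPM on day 3, whereas Hoxb1 had 49.0 ± 1.87 and 49.3 ± 20.2 CPM on these days.

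**Figure D3:**
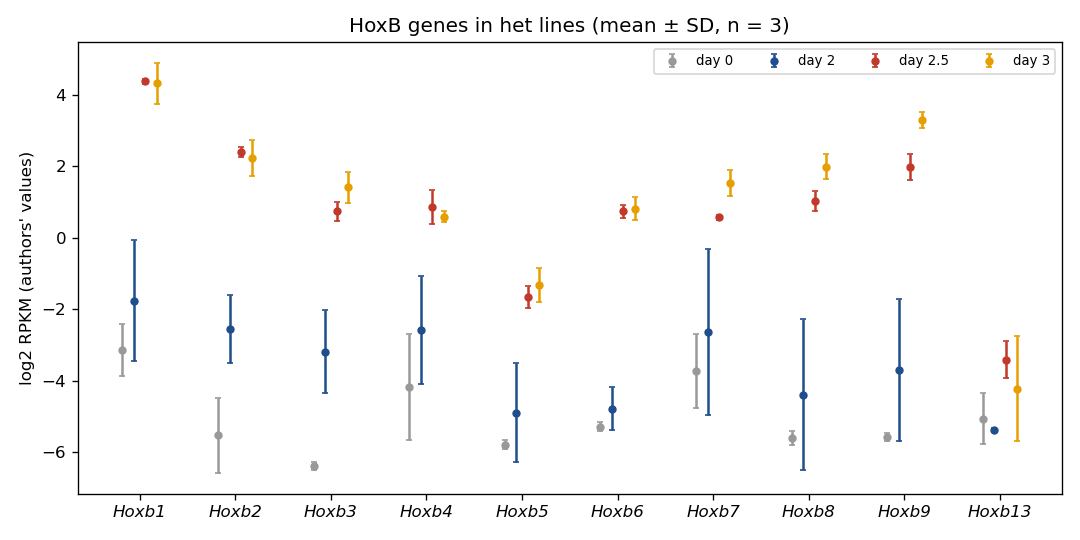
Mean log2 RPKM of HoxB genes in the het lines on days 0, 2, 2.5 and 3, as computed by the authors, with SD over 3 lines. Hoxb1 reached 4.38 on day 2.5 from -1.76 on day 2, and the spread between lines on day 2 was wide where counts were few.

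Outside HoxB, 6 of 9 HoxC and 4 of 9 HoxD genes were below the filter. Those called higher, 2 HoxC and 3 HoxD genes, all passed it through day 2.5 only, and the other tested members, Hoxc13, Hoxd1 and Hoxd13, did not pass the test. Hoxc4 went from 0.182, 0.719 and 0.325 CPM to 4.08, 4.5 and 3.6 CPM, and Hoxd9 from 0.728, 0.659 and 0.39 CPM to 4.42, 2.67 and 4.88 CPM. Hoxd4 had no count on day 2 and 3.44, 1.57 and 1.43 CPM on day 2.5, at least 11.8-fold higher than the floor of 3 counts per library. The call of Hoxd8 was lost without day 2.5 line 1 (adjusted p = 0.101) and with DESeq2 (adjusted p = 0.25).

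Formative and primed epiblast genes, which mark the state before lineage choice, fell. Of 14 tested, 13 were lower and none higher, 8 of the 13 past 2-fold, with a median of -1.58. The filter was passed through day 2 only by 1 of the lower genes, and of the other 13 members 12 were lower, 7 past 2-fold. Otx2 (chr14:48657677-48673819, minus strand), a homeobox gene of the anterior epiblast, was at 85.1, 69.6 and 66.9 CPM on day 2 and at 6.98, 6.90 and 4.93 CPM on day 2.5 (-3.56 ± 0.16, adjusted p = 1.39e-09). Pou3f1, a POU factor of primed epiblast, fell from 59.9, 48.9 and 52.2 CPM to 6.88, 7.74 and 6.61 CPM. Fgf5, the classical primed marker, fell from 15.5, 9.05 and 10.2 CPM to 3.00, 2.20 and 3.70 CPM (-1.97 ± 0.28, adjusted p = 7.82e-05). Fgf4, an epiblast FGF ligand that binds many of the same receptors, had the largest fall of the named genes, from 172, 156 and 181 CPM to 3.09, 6.17 and 4.04 CPM (-5.27 ± 0.18, adjusted p = 1.15e-10).

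Naive markers were mixed. Of 13 general pluripotency genes 8 were lower and none higher, none past 2-fold, and Pou5f1, which encodes OCT4, fell from 873, 857 and 819 CPM to 642, 665 and 599 CPM (-0.42 ± 0.07, adjusted p = 0.000373). Nanog was at 71.1, 59.3 and 79.7 CPM on day 2 and at 45.2, 55.2 and 67.1 CPM on day 2.5, with overlap and no call (adjusted p = 0.0712). It passed as lower with the replicate block (-0.34, adjusted p = 0.0312), without a filter (adjusted p = 0.034), without day 2 line 2 (adjusted p = 0.0313) and without day 2.5 line 3 (adjusted p = 0.0139). Among 17 naive markers, 4 were higher and 6 lower. Tdh, threonine dehydrogenase, rose from 10.9, 11.9 and 11.8 CPM to 107, 128 and 121 CPM (3.36 ± 0.11, adjusted p = 1.15e-10), after 218 ± 11.3 CPM on day 0 and before 26.2 ± 12.5 CPM on day 3 (SD, n = 3). Tbx3 and Klf4 also rose, by 2.28 ± 0.26 and 1.45 ± 0.33, while Spp1 fell by 2.18 ± 0.14 on the log2 scale. Dppa5a was also lower, and Fgf4, whose fall is given above, is a member of the naive list and not of the formative one. Past 2-fold were 2 naive markers each way.

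**Figure D4:**
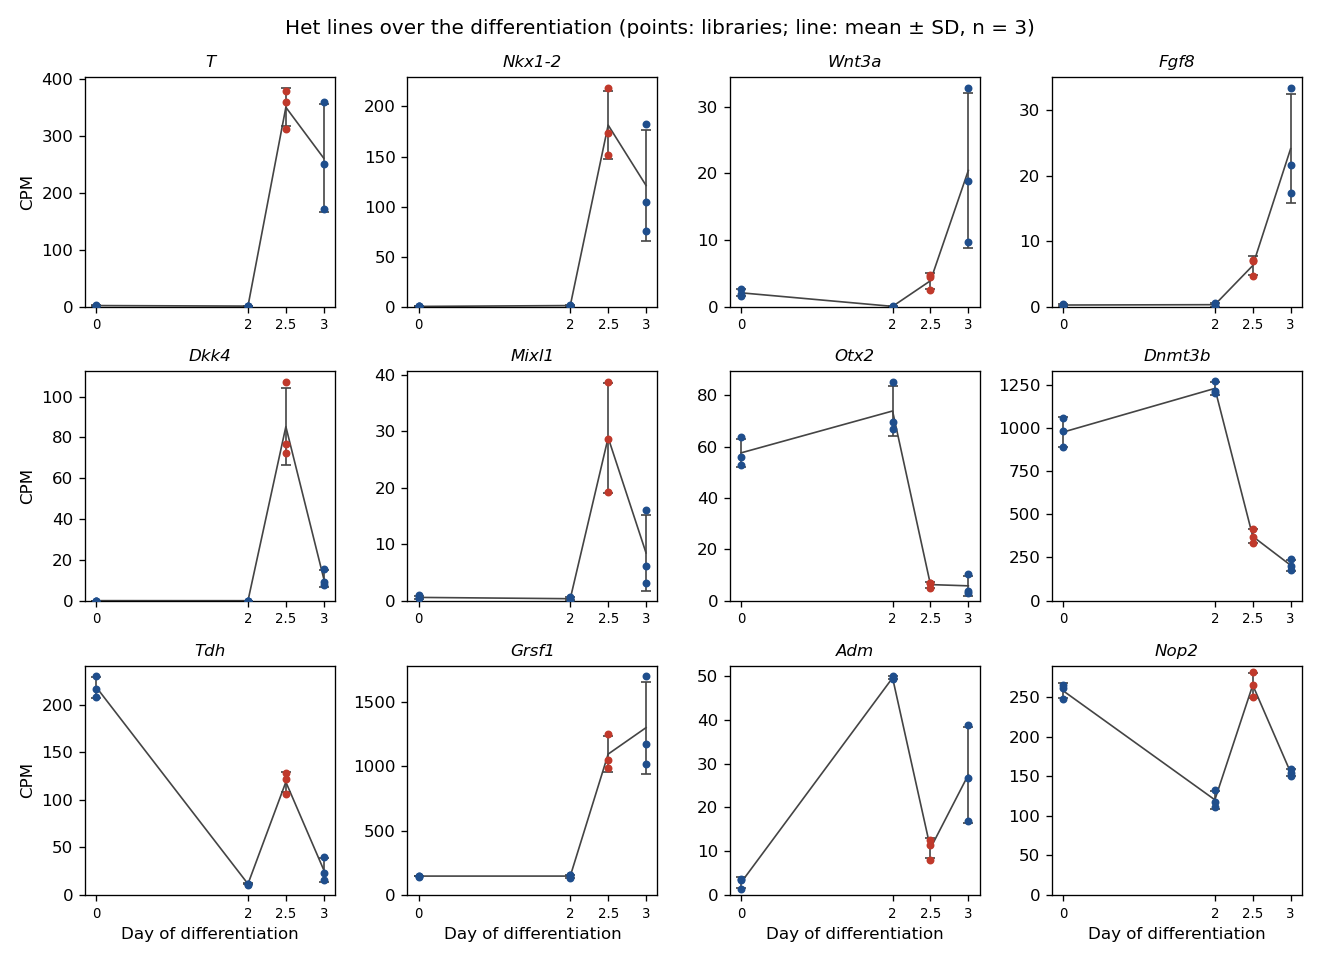
Levels of 12 genes in the het lines over days 0, 2, 2.5 and 3, in CPM on linear axes that start at 0, with points for libraries (day 2.5 in red) and the line and bars for mean ± SD, n = 3. Dkk4 and Mixl1 were higher on day 2.5 than on day 3 in the means (85.2 and 10.8 CPM, 28.9 and 8.46 CPM), and Otx2 and Dnmt3b stayed low on day 3.

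Neural genes were mixed. Of 12 tested out of 25 listed, 3 were higher and 3 lower, shares near those of all genes, and 5 were higher without day 2 line 1. Of the higher genes Nkx6-1 passed the filter through day 2.5 only, and of the lower genes Pax6 through day 2 only, so these calls are a description. Pax6, a neural progenitor factor, fell from 17.6, 15.0 and 14.9 CPM to 0.54, 1.10 and 0.395 CPM (-4.55 ± 0.32, adjusted p = 1.3e-07). Sox1 and Sox3 fell by 2.93 ± 0.28 and 1.95 ± 0.30 on the log2 scale (adjusted p = 1.9e-06 and 0.000133). Nkx6-1, a ventral neural factor, had no count on day 2 and 1.18, 1.15 and 1.18 CPM on day 2.5, at least 6.42-fold higher than the floor.

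Of 11 tested enzymes of DNA methylation and demethylation, 6 were lower, 1 was higher and 4 did not pass. Past 2-fold were 5, all lower. Dnmt3b, a de novo methyltransferase, was at 1272, 1201 and 1212 CPM on day 2 and at 334, 367 and 414 CPM on day 2.5 (-1.73 ± 0.09, adjusted p = 3.74e-09). Tet1, which oxidises 5-methylcytosine, fell from 342, 322 and 359 CPM to 84.2, 89.9 and 88.5 CPM. The maintenance enzyme Dnmt1 changed by -0.02 and did not pass (adjusted p = 0.9), and Tet3 rose by 1.13 ± 0.16 (adjusted p = 5.56e-05). Tet1, Tet2 and Tet3 thus did not share a direction.

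Polycomb genes were mixed. Of 14 PRC2 genes 9 were lower and 4 higher, 3 past 2-fold and all of these lower: Phf19, Ezh1 and Jarid2. The accessory subunit Jarid2 fell from 359.9, 355 and 355 CPM to 124, 155 and 148 CPM (-1.33 ± 0.09, adjusted p = 8.02e-08). The core subunits Ezh2 and Suz12 fell by 0.43 ± 0.08 and 0.63 ± 0.08 on the log2 scale (adjusted p = 0.000414 and 2.45e-05). Of 20 PRC1 genes 7 were lower and 3 higher (4 lower without line 1 of either day, 1 higher without day 2.5 line 1), and Phc1 alone passed 2-fold (-1.71 ± 0.07, adjusted p = 1.02e-09). Of 10 SMC family genes and partners, 6 were lower, Smchd1 among them, and none higher (1 without day 2 line 3).

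The other signalling pathways changed in part. In the FGF pathway the ligand Fgf8, which passed the filter through day 2.5 only, rose from 0.243, 0.599 and 0 CPM to 7.02, 4.66 and 7.10 CPM. Fgfr3 fell by 2.00 ± 0.26 on the log2 scale (adjusted p = 2.99e-05). Of 14 ligands and receptors 3 were higher, a share near that of all genes, and 5 lower (5 higher without day 2 line 1, 3 lower without line 2 of either day). Dusp1, a phosphatase of MAP kinases, fell from 127, 116 and 108 CPM to 15.7, 16.3 and 14.8 CPM (-2.91 ± 0.11, adjusted p = 1.96e-10). Its neighbour on the opposite strand, Ergic1, overlaps it. In the Notch list 7 of 17 were lower and 3 higher (1 without day 2 line 1), and Rbpj, the DNA-binding factor of the pathway, fell from 155, 163 and 180.2 CPM to 46.5, 44.4 and 53.2 CPM. In the BMP list 5 of 19 genes were higher, a share near that of all genes, and 3 were lower, Id2, Bmpr2 and Nog. The filter was passed through day 2.5 only by Msx1, 1 of the 5, and through day 2 only by 1 of the lower genes. Without day 2 line 3 or any one of the day 2.5 libraries 1 was lower. Id3, a target of BMP signals, rose by 2.45 ± 0.28 (adjusted p = 1.02e-05).

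Cell adhesion genes were mixed. Of 21 cadherin and epithelial-mesenchymal genes, 5 were higher, a share near that of all genes, and 9 lower. The filter was passed through day 2.5 only by 1 of the 5. Cdh1, epithelial cadherin, fell from 687, 705 and 666 CPM to 272, 299 and 354 CPM (-1.16 ± 0.09, adjusted p = 3.92e-07), and Cdh2, neural cadherin, rose from 7.83, 8.15 and 8.31 CPM to 38.2, 35.6 and 51.7 CPM (2.36 ± 0.16, adjusted p = 1.02e-07). Epcam and Esrp1, both epithelial, fell by 1.22 ± 0.09 and 1.27 ± 0.09 on the log2 scale, and Snai1, a repressor of Cdh1, did not pass (0.32, adjusted p = 0.34). Ephrin receptors included Epha5, with no count on day 2 and 3.44, 3.77 and 3.80 CPM on day 2.5, at least 20.1-fold higher than the floor.

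Most glycolysis and hypoxia genes were lower and most ribosome biogenesis genes higher. Of 17 glycolysis genes 12 were lower and 1 higher (0 to 2 higher when 1 library was left out), with a median of -0.42. Of 11 hypoxia genes 8 were lower, 3 of them past 2-fold, and 1 higher, with a median of -1.01. The higher gene of both lists, Pdk1, lost its call without any of 4 libraries (adjusted p between 0.0524 and 0.069). Adm (adrenomedullin) fell from 49.5, 50 and 49.4 CPM to 8.06, 12.6 and 11.3 CPM (-2.23 ± 0.15, adjusted p = 1.05e-07). Of 20 ribosome biogenesis genes 12 were higher and none lower, and none passed the test against 2-fold. Nop2, a nucleolar RNA methyltransferase, rose from 133, 111 and 117 CPM to 265, 249.6 and 281 CPM. Of 20 cell cycle genes 6 were higher and 9 lower, 2 each way past 2-fold, and those lower past it numbered 0 or 1 when any one library was left out. Cdkn1a, a cyclin-dependent kinase inhibitor, rose from 48.3, 38.2 and 46.8 CPM to 192, 177 and 197 CPM (2.08 ± 0.10, adjusted p = 3.36e-09), and Ccnd2 by 1.86 ± 0.10. Another such inhibitor, Cdkn1b, fell by 1.37 ± 0.11 on the log2 scale, Mycn by 1.29 ± 0.10 and the topoisomerase gene Top2a by 1.13 ± 0.07 (adjusted p = 4.02e-07, 2.91e-07 and 4.37e-08).

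Among the remaining large changes, Grsf1, an RNA-binding protein of mitochondrial granules, rose from 132, 153 and 153 CPM to 1049, 982 and 1251 CPM (2.90 ± 0.10, adjusted p = 1.39e-10) and had 1299 ± 358 CPM on day 3. Crebrf fell from 80.3, 97.6 and 102 CPM to 5.80, 6.85 and 5.67 CPM, and Myb from 42.1, 41.3 and 50.1 CPM to 5.06, 4.60 and 3.35 CPM. Klhl14 fell from 6.31, 7.79 and 4.87 CPM to 0, 0.366 and 0.247 CPM. Of 419 lincRNA genes tested, 15 were higher past 2-fold (3.58%) and 3 lower (0.716%). Of 700 antisense genes 19 were higher (2.71%) and 7 lower (1.0%), though without the strand their reads and those of the genes opposite cannot be told apart, and of 13846 protein-coding genes 290 were higher (2.09%) and 277 lower (2.0%).

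Of 33 tested clustered protocadherins, which encode neuronal adhesion molecules, 19 were higher and none lower, but the genes of the alpha cluster, and likewise those of the gamma cluster, share constant exons, so their counts are not separate measurements, and the count of higher members was between 1 and 21 when 1 library was left out. Without day 2 line 1, 12 members were lower, all of the alpha cluster, and without day 2.5 line 1 Pcdhac2 was (adjusted p = 0.0481). The higher members numbered 2 without day 2 line 1, and 1 without day 2 line 3, day 2.5 line 1 or day 2.5 line 3. With the replicate block 9 were higher, and with all 24 libraries in the fit 1 was. In the edgeR fit of all 6 libraries no member of the alpha cluster passed, but Pcdhac2 passed as lower without a filter and with DESeq2 (adjusted p = 0.0256 and 0.0402).

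The same days in wt lines share no library with the het comparison. There 4519 of 15540 genes (29.1%) passed and 298 passed 2-fold (1.92%), fewer than in het (with all 24 libraries in the fit, 6158 in wt and 6797 in het). The genes past 2-fold in wt numbered 127 with limma voom and 374 with all 24 libraries in the fit, against 345 and 574 in het. Line 2 of wt day 2.5 held 7102655 counts, and without it 3223 genes passed. Chromosome 8 of wt line 1 stood above the mean of its day on the log2 scale by 0.18 on day 2.5 and by 0.14 on day 2. The part of depth and of this chromosome in the wt counts was not otherwise tested. Without 1 wt library the first count was between 3148 and 4355. Of the 621 genes past 2-fold in het, 589 were tested in wt, all 589 changed in the same direction there, and 542 passed the wt test. The genes past 2-fold in both, 246, were 39.6% of the het set and 82.6% of the wt set, 140 higher and 106 lower, with 0 in opposite directions.

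Independent of the het values, 167 genes were higher past 2-fold in wt, and all 167 were higher in each het line, with median log2 changes of 2.38, 2.41 and 2.56 in lines 1, 2 and 3. Of 131 genes lower in wt, 129, 129 and 128 were lower in the 3 het lines. The difference of the change between genotypes passed for 0 of 16569 genes (0.0%) by edgeR, and likewise for 0 by DESeq2 and by limma voom. Without adjustment 850 genes (5.13%) had p under 0.05, and the smallest adjusted p was 0.952. For Fst the change was 4.61 ± 0.18 in het and 3.13 ± 0.30 in wt lines, and the difference did not pass (edgeR, adjusted p = 0.952).

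**Figure D5:**
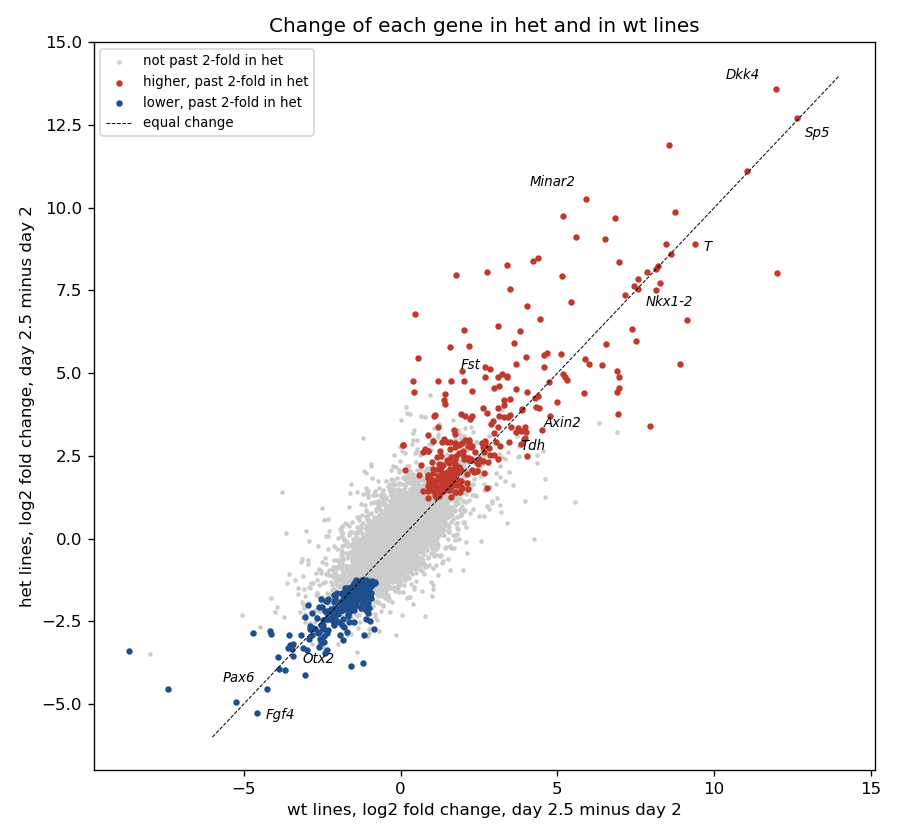
Log2 fold change of each gene from day 2 to day 2.5 in wt lines (horizontal) and het lines (vertical), with genes past 2-fold in het in red (higher) and blue (lower) and a dashed line of equal change. All 589 genes past 2-fold in het and tested in wt lie in the quadrants of equal direction.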

How the data were processed

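Polyadenylated RNA of 24 libraries was sequenced by the authors as 75 bp single-end reads, aligned to GRCm38.p6 with HISAT2 2.0.5 after Trim Galore 0.4.4, and quantified in SeqMonk. The deposited table holds raw counts per gene, which were used here; the deposited log2 RPKM values (the authors' log2 of length- and depth-scaled reads) were used only for HoxB levels, and the deposited signal columns, the authors' group means, were not used. The table of authors' comparisons was not used.

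Gene tests used edgeR 4.0.16 in R 4.3.3 (TMM, filterByExpr, quasi-likelihood, adjusted p under 0.05; glmTreat for the 2-fold bound) on the 6 het libraries, with CPM printed on a scale of all 24. DESeq2 1.42.0 and limma 3.58.1 were alternatives. Scripts were tested on simulated data. Genes, lists and members were chosen with earlier results of these data known. The named genes were fixed genes of the pathway and, of genes whose days did not overlap with a mean of at least 50 counts on one day, the 10 with the highest and the 10 with the lowest change, up to 3 each way in each list, and the 5 with the largest rise and fall per kb; genes named beside them, to describe a role, a non-call or a lost call, were chosen after their values were seen.

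The labels give the same line number to the same line on each day, so lines pair the days. Deviations from day means correlated by 0.03, 0.01 and -0.03 in lines 1, 2 and 3, and the main fit had no block. Counting intervals cover counting error only. Whether the libraries used the stranded or the unstranded kit is not given in the sources used here.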

Additional observations from a re-analysis of the deposited data

How the results depend on the processing

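The number of genes that differed in het lines was 6925 with DESeq2 size factors, 7062 with library totals, 7134 without a filter, 6536 with a mean of at least 50 counts, 7092 with DESeq2, 7098 with limma voom and 6797 with all 24 libraries in the fit. With library totals 57.3% of these were higher, against 48.7%, and the median of all genes moved from 0.01 to 0.09. The genes past 2-fold numbered 345 with limma voom, 425 with DESeq2 and 687 without a filter, against 621; the cause was not tested. With the replicate block, the pairing by line, 6793 genes differed and 562 passed 2-fold; it moved neither count by over 1.5 times and, of the genes named in the text, changed the calls of Fzd8, Hoxb7 and Nanog. Leaving out 1 library gave 5665 to 6648 genes that differed, 421 to 574 past 2-fold and, in wt lines, 3148 to 4355. The genotype difference gave 35 genes without a filter, and 0 to 2 when 1 library was left out, 2 without wt day 2 line 1 and 1 without het day 2.5 line 3. Of 3005 values of named genes under alternatives, 117 lost the call, 12 gained it and 2 changed sign, both of Ctnnb1, which passed in neither (0.01 with library totals and 0.02 without day 2.5 line 2). The number of lines per day and the missing culture without CHIR99021 limit what these counts can say.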
